A study of Danio rerio with 6 samples.

Results

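A set of 5 genes of glucose use was followed through the deposited lists of H3K9ac and H3K9me3 peaks from regenerating zebrafish heart: 4 that encode glycolytic enzymes (pfkmb, pgam2, eno1a and eno1b) and pdk4, which controls the fate of pyruvate. They were chosen by symbol, with earlier results of these data known, and are 5 of the 10068 genes that the peak lists name. Each peak within 2 kb of the annotated transcription start site (TSS) of a gene on either side, in whole or in part, and each peak in its transcript, was collected, whether or not the authors' annotation gave the peak a gene name. Each of the 5 genes had 1 annotated transcript.

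The study used heart tissue of zebrafish aged 1 to 1.5 years. Hearts were uncut, or were collected 6 or 9 days post amputation (dpa) of the tip of the ventricle, and no strain, transgene or number of pooled hearts is given in the sources used here. Chromatin immunoprecipitation and sequencing (ChIP-seq) was done with an antibody to H3K9ac (H3K9Ac in the labels), an acetylation typical of active promoters, and one to H3K9me3 (H3K9M3 in the labels), a trimethylation typical of silent chromatin. There was 1 library for each mark and time, 6 in all, so differences between times lack a replicate check and are differences between single libraries.

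Glycolysis splits glucose into pyruvate. Phosphofructokinase makes its committed step, phosphoglycerate mutase and enolase act near its end, and the pyruvate formed is either reduced to lactate or oxidised in mitochondria by the pyruvate dehydrogenase complex. Pyruvate dehydrogenase kinases such as the product of pdk4 phosphorylate that complex and switch it off. The adult heart burns mainly fatty acids, and a turn towards glycolysis has been described in cardiomyocytes that re-enter the cell cycle.

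The H3K9ac lists held 16264, 17525 and 17223 peaks in uncut, 6 dpa and 9 dpa hearts, with 1902151, 2066547 and 2206341 tags (reads inside peaks), and the H3K9me3 lists 4488, 6216 and 4771 peaks. The local background read density against which each peak was scored was recovered from the authors' score. Its most common value in a list is called the library background here. In the same order it was 14.63, 11.25 and 15.01 reads per kb for H3K9ac and 4.1, 10.83 and 9.24 for H3K9me3. Single peaks could have another local value, such as 40.1 reads per kb for the pdk4 H3K9ac peak in uncut hearts. Of 11 cardiomyocyte markers looked for, the lists named 6, among them myl7, vmhcl and tnnt2a. All 6 had an H3K9ac promoter peak in the uncut and 9 dpa libraries and 4 had one at 6 dpa, with summed promoter tags of 641, 285 and 576. The sum at 6 dpa leaves out tnnt2a and tnnc1a, which had no called peak there. Each of the 4 called there was at least 1.5-fold lower than in uncut hearts relative to the median gene, as were 7.33% of all genes. In tags per kb vmhcl alone passed that fold (log2 change -0.88), with -0.54 for myl7, -0.56 for cmlc1 and -0.29 for atp2a2a. Scaling to the library background instead adds 0.49 to the log2 change of every gene at 6 dpa, so the call depended on the measure. None of 11 skeletal muscle markers was named, and the leukocyte marker coro1a had a peak at 6 dpa alone (39 tags, 1 of 7 leukocyte markers named). Of 8 erythrocyte markers 7 were named, and in each library 6 of these 7 had a peak, with summed tags of 1211, 1605 and 1982. The sum at 9 dpa is over other genes, since ba1 had no peak there and gata1a had one there alone. Endothelial markers had peaks at 4, 3 and 4 of the 5 named, with summed tags of 396, 153 and 307. These sums are over different genes too, since fli1a (128 tags) was called in uncut hearts alone and pecam1 (34 tags) at 9 dpa alone. Of the 3 called in every library, kdrl held 107, 63 and 98 tags, kdr 106, 45 and 107, and flt1 55, 45 and 68. At 6 dpa kdrl and kdr, 2 of the 3, were at least 1.5-fold lower than in uncut hearts relative to the median gene. Of all genes 7.33% were. In tags per kb the changes of kdrl, kdr and flt1 were -0.76, -0.50 and -0.42. Markers of epicardium and fibroblasts had peaks at 1, 5 and 3 of the 5 named, with wt1b, aldh1a2, dcn and fn1b called at 6 dpa and not in uncut hearts, and summed tags of 108, 291 and 244. The marker called in every library, col1a2, had 108, 112 and 117 tags, so these sums differ mainly by which genes were called. The peaks of wt1b, aldh1a2, dcn and fn1b at 6 dpa held 43, 45, 53 and 38 tags. A peak at 6 dpa with none in uncut hearts was called at 5.96% of all genes. Nothing is read from the counts of markers called, here or for coro1a, since a gene is named only if a peak list holds it. The part of these marker levels in the results below was not tested, and in whole heart tissue fewer cells of a type cannot be told apart from less of the mark per cell.

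At 6 dpa the promoters of all 5 genes carried a called H3K9ac peak, against 3 in uncut hearts (eno1a, eno1b and pdk4) and 2 at 9 dpa (eno1a and pdk4). Across all genes, 82.8% had such a peak in the uncut library, 86.9% at 6 dpa and 85.4% at 9 dpa. A peak at 6 dpa with none in uncut hearts, seen at 2 of the 5, was called at 5.96% of all genes, and one at 6 dpa with none at 9 dpa, seen at 3 of the 5, at 4.19%. Nothing is read from these shares for the 5 genes: pfkmb and pgam2 are in the lists only through their peaks at 6 dpa, so that a peak at that time was a condition of their being counted. Their H3K9ac peaks were of 2 kinds by level. Those of eno1a and pdk4 held more tags than the median gene with a peak and were present at every time. A peak at every time was seen at 79.5% of all genes. Those of pfkmb, pgam2 and eno1b were weak, and each was missing from at least 1 library. The H3K9me3 lists had no promoter peak at any of the 5 genes in uncut hearts or at 9 dpa, and had 2 at 6 dpa, at eno1a and pdk4. The pdk4 one reached only 126 bp into the 2 kb window.

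**Figure D1:**
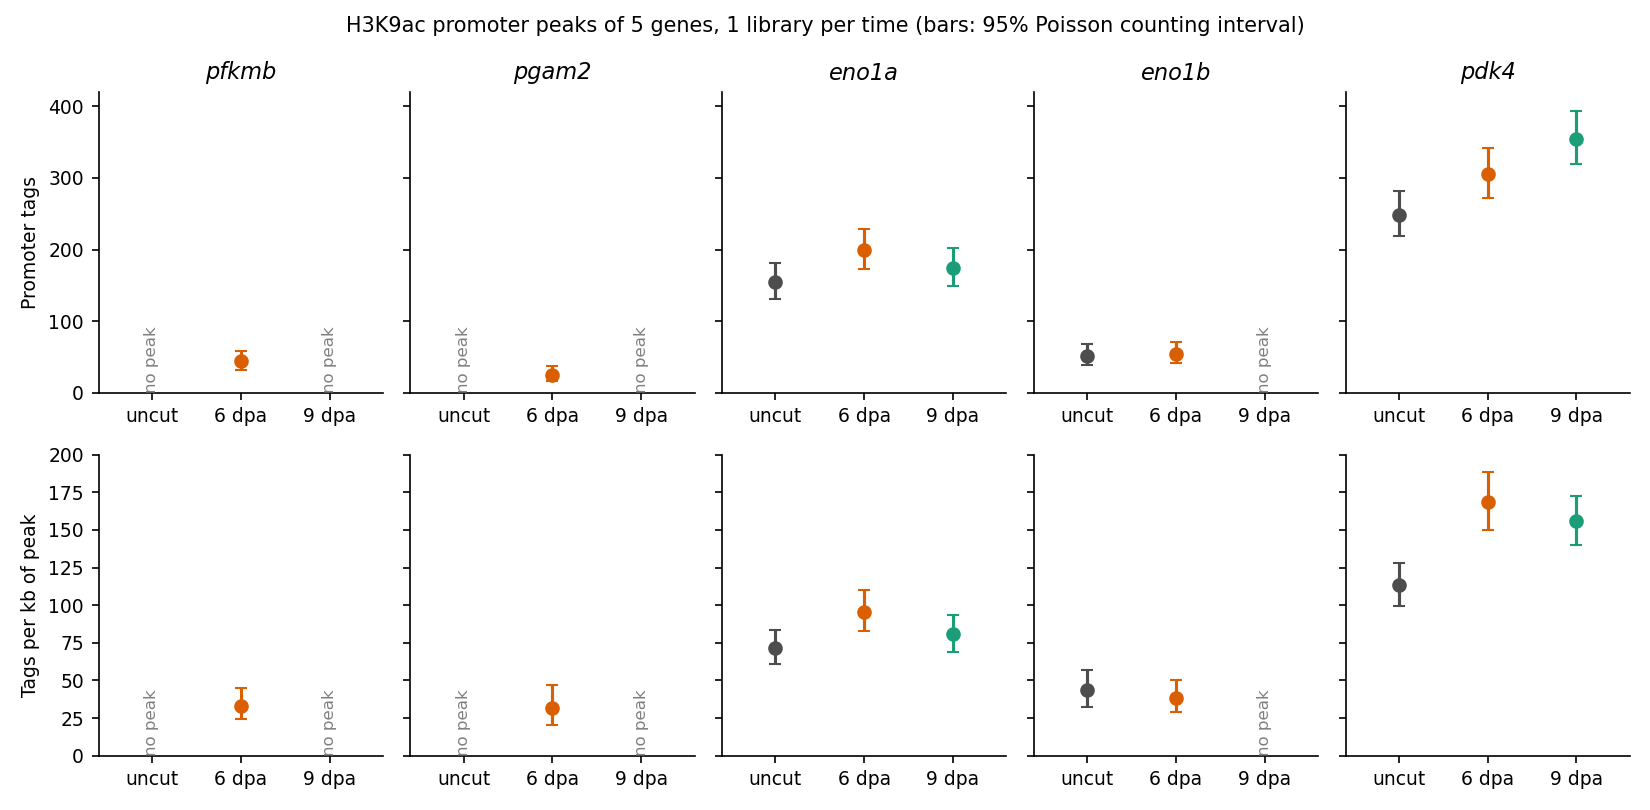
H3K9ac promoter peaks of the 5 genes by library: tags in the peak (upper row) and tags per kb of called peak (lower row) in uncut, 6 dpa and 9 dpa hearts. Points are the values of 1 library each and bars their 95% Poisson counting interval; pdk4 and eno1a lie above 150 tags at every time, and pfkmb and pgam2 have a called peak at 6 dpa alone.

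The peak of pfkmb, one of the genes for the muscle type of phosphofructokinase, was present at 6 dpa alone. The gene lies on the minus strand of chromosome 6 at 39742180 to 39767431 (danRer10), and the H3K9ac peak ran from 39766814 to 39768135, over the TSS, with its summit 101 bp downstream of it. The authors' annotation gave it promoter, UTR, coding, exon and intron elements of pfkmb. It held 44 tags (95% Poisson interval 32.0 to 59.1) over 1322 bp, or 33.3 tags per kb, which was 2.62 times the local background of 12.7 reads per kb. Its score was 80.48, on a scale where 50, the lowest score listed, stands for a p of 1e-05. Of the 8750 genes with a promoter peak in that library, 6.06% had fewer tags.

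In unscaled tags, this pfkmb peak was close to the lowest counts called in the other libraries. Among called peaks of like width (within 10%), the lowest tag count was 42 in the uncut library and 42 at 9 dpa, and 34 at 6 dpa. A peak of 44 tags would have been among the weakest in the uncut and 9 dpa lists, where 0.235% and 0.149% of peaks of this width held fewer tags. Reads under the calling threshold are not in the lists, so absence from a list is not a measured 0. The counts are not scaled between libraries, whose H3K9ac backgrounds were 14.63, 11.25 and 15.01 reads per kb in uncut, 6 dpa and 9 dpa hearts. They thus do not show whether a like peak would have been called at the other times. Presence at 6 dpa alone was seen at 2.79% of all genes.

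The same pattern held for pgam2, which encodes the muscle type of phosphoglycerate mutase. Its transcript spans 18965040 to 18969995 on the minus strand of chromosome 21, and the peak at 6 dpa spanned 18969399 to 18970183, with its summit 273 bp inside the gene. It held 25 tags (16.2 to 36.9) over 785 bp, 31.8 per kb, with a score of 56.76. This was the weakest promoter peak of the 5 genes, and 0.217% of the 8750 promoters called in that library had fewer tags. In the uncut and 9 dpa lists no peak of like width held fewer than 27 tags, so 25 tags over this width lay below every such peak called there. These counts too are not scaled between libraries.

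Related genes of the same steps had a peak in every library. The other muscle type phosphofructokinase gene, pfkma, had 56 tags before amputation, 81 at 6 dpa and 95 at 9 dpa. The pgam1b gene, a phosphoglycerate mutase gene, had 46, 73 and 84 tags in the same order, and its relative pgam1a 127, 141 and 156. Raw tags of these 3 genes were higher in both libraries after amputation, as were those of the median gene. Relative to that gene the log2 changes at 6 and 9 dpa were 0.42 and 0.54 for pfkma, 0.55 and 0.65 for pgam1b, and 0.04 and 0.08 for pgam1a. In tags per kb they were 0.02 and -0.24 for pfkma, 0.53 and 0.82 for pgam1b, and -0.22 and -0.11 for pgam1a, so the sign for pgam1a at both times and for pfkma at 9 dpa depended on the measure.

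The pair of enolase genes differed in level. Enolase forms phosphoenolpyruvate, the substrate of the last step of glycolysis. At eno1a, on the plus strand of chromosome 23 at 22729993 to 22751285, the H3K9ac peak began 547 to 622 bp before the TSS and ended 1530 to 1554 bp after it in every library. It held 155 tags in uncut hearts (132 to 181), 199 at 6 dpa (172 to 229) and 174 at 9 dpa (149 to 202). The 3 counting intervals overlap, and the widths were 2164, 2078 and 2158 bp. Per kb of peak the levels were 71.6, 95.8 and 80.6 tags. Among genes with a promoter peak, eno1a had more tags than 68.1%, 77.6% and 65.5% in the same order. In the uncut library, 44.7% of peaks of like width held fewer tags than its 155.

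Changes between libraries were taken as log2 ratios of promoter tags, and the median ratio over the 8009 genes called in each of the H3K9ac libraries was subtracted. The subtracted medians were 0.11 for 6 dpa and 0.22 for 9 dpa against uncut hearts, so the median gene had more raw tags after amputation. On this scale the change of eno1a was 0.25 at 6 dpa (95% counting interval -0.06 to 0.56) and 0.35 in tags per kb. At 9 dpa it was -0.05 (-0.37 to 0.27), and between 6 and 9 dpa -0.30 (-0.60 to 0.003). None of the 3 passed a 1.5-fold difference, a log2 value of 0.58, and each interval includes 0. Of all genes compared, 3.42% were 1.5-fold higher and 7.33% lower at 6 dpa than in uncut hearts, 3.14% and 2.8% at 9 dpa, and 5.72% and 1.96% at 9 dpa against 6 dpa. Scaled to the background of each library instead, the change at 6 dpa was 0.74 and that from 6 to 9 dpa -0.61. For every gene this scaling adds 0.49 and -0.31 to these 2 changes.

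At eno1b, on the plus strand of chromosome 6 at 40664251 to 40671872, the H3K9ac peak covered the TSS in uncut hearts and at 6 dpa and was not in the 9 dpa list. It held 52 tags (38.8 to 68.2) over 1197 bp before amputation and 55 (41.4 to 71.6) over 1423 bp at 6 dpa. The log2 change was -0.03 (-0.61 to 0.54), and -0.24 in tags per kb. In uncut hearts the tags per kb of eno1b (43.4) were below those of eno1a (71.6). In the 9 dpa list the lowest tag count among peaks of the uncut peak's width was 36, and 26.3% of such peaks held fewer than 52 tags. At the width of the 6 dpa peak the lowest was 43, and 3.21% held fewer than 55. Again the counts are not scaled between libraries. Presence in uncut hearts and at 6 dpa with absence at 9 dpa was seen at 1.4% of all genes.

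The authors' lists placed another H3K9ac peak 8834 to 10603 bp downstream of the eno1b TSS, past the end of the gene and with no gene named, in every library. It held 90, 112 and 121 tags in uncut, 6 dpa and 9 dpa hearts. The eno1b promoter peak was missing at 9 dpa, while this flanking peak was called there with its highest count in unscaled tags. The median gene also had more raw tags at 9 dpa than at 6 dpa (log2 ratio 0.10). A peak that the authors annotated to both ppil1 and mir429b, 9373 bp or more upstream of the eno1b TSS, held 65, 58 and 80 tags.

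**Figure D2:**
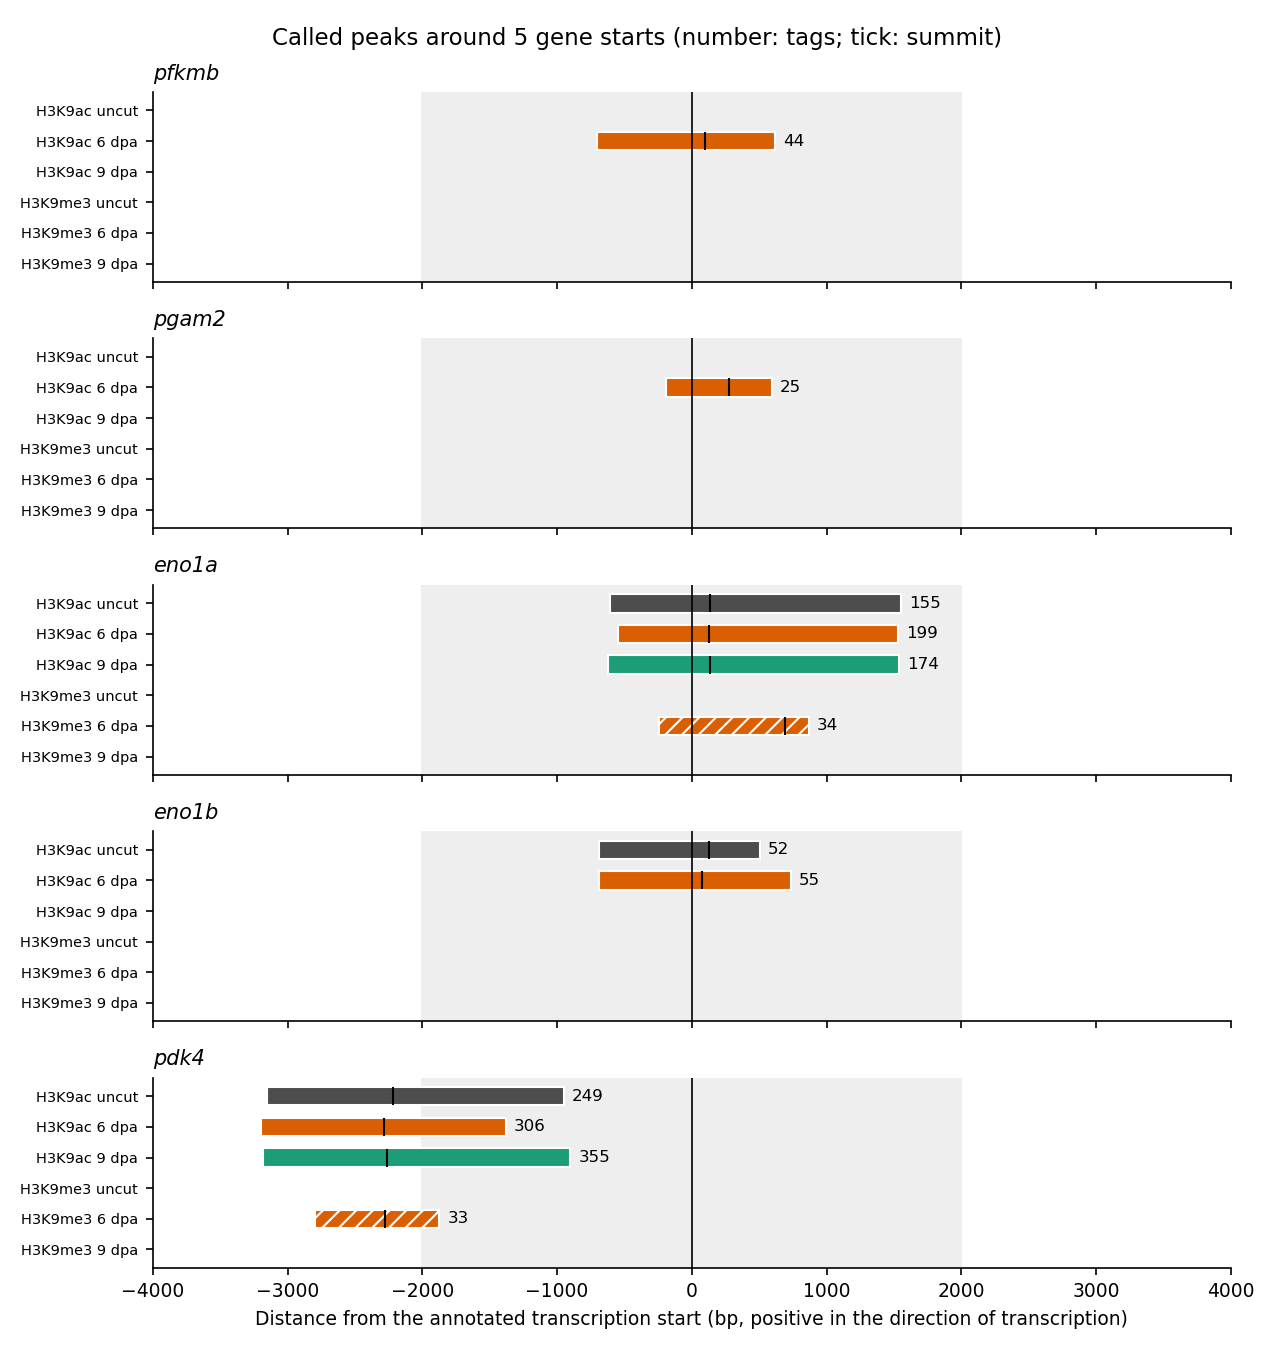
Called peaks within 4 kb of the annotated TSS of the 5 genes, with distance in bp in the direction of transcription on the horizontal axis and 1 row per library. Bars are peaks (hatched for H3K9me3), numbers are their tags, ticks their summits, and the grey band is the window of 2 kb on either side; the pdk4 peaks lie upstream of the TSS at every time, and H3K9me3 appears at eno1a and pdk4 at 6 dpa alone.

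The pdk4 gene had the highest H3K9ac level of the 5 at every time, on tags and on tags per kb. It lies on the minus strand of chromosome 19 at 41603137 to 41625989. Its peak held 249 tags in uncut hearts (219 to 282), 306 at 6 dpa (273 to 342) and 355 at 9 dpa (319 to 394). The uncut interval lies below that of 9 dpa and overlaps that of 6 dpa. Among genes with a promoter peak it had more tags than 91.8%, 94.0% and 96.1% in the same order. Per kb of peak the levels were 113, 168 and 156 tags. These were 7.73, 14.97 and 10.4 times the library background. Against the local background, the measure used for pfkmb above, they were 2.82, 4.03 and 2.95 times.

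The log2 change of pdk4 at 9 dpa was 0.29 (0.06 to 0.53), higher than 86.4% of the 8132 genes compared. It is the only change of the 5 genes whose counting interval excludes 0, and it did not reach 1.5-fold, as 3.14% of genes did in this direction. At 6 dpa the change was 0.18 (-0.06 to 0.43) in tags. The peak was then narrower, 1817 bp against 2201 bp before and 2280 bp at 9 dpa, and in tags per kb the change at 6 dpa was 0.50. Between 6 and 9 dpa the change was 0.11 (-0.11 to 0.34) in tags but -0.19 per kb, and -0.20 when scaled to the background. The order of the times after amputation thus depended on the measure, while both were above the uncut library in tags, in tags per kb and when scaled to the background.

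This pdk4 peak did not cover the annotated TSS. It began 902 to 1380 bp upstream and had its summit at -2220 bp from the TSS before amputation, -2283 bp at 6 dpa and -2259 bp at 9 dpa. At 6 dpa the near edge lay 1380 bp from the TSS, against 949 and 902 bp at the other times. The authors' annotation named pdk4 for the uncut and 9 dpa peaks and no gene for the 6 dpa peak, although the 6 dpa peak had the highest score of the 3 (874.05, against 442.12 and 668.04, the authors' values, each within its own list). A search by gene symbol therefore finds pdk4 at 2 times, and one by position at all 3. With a window of 1 kb around the TSS pdk4 also drops out at 6 dpa, since the overlap is 52 bp in uncut hearts, 99 bp at 9 dpa and none at 6 dpa. No other gene named in the lists had this peak in its promoter window. A TSS of pdk4 other than the annotated one was not looked for.

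**Figure D3:**
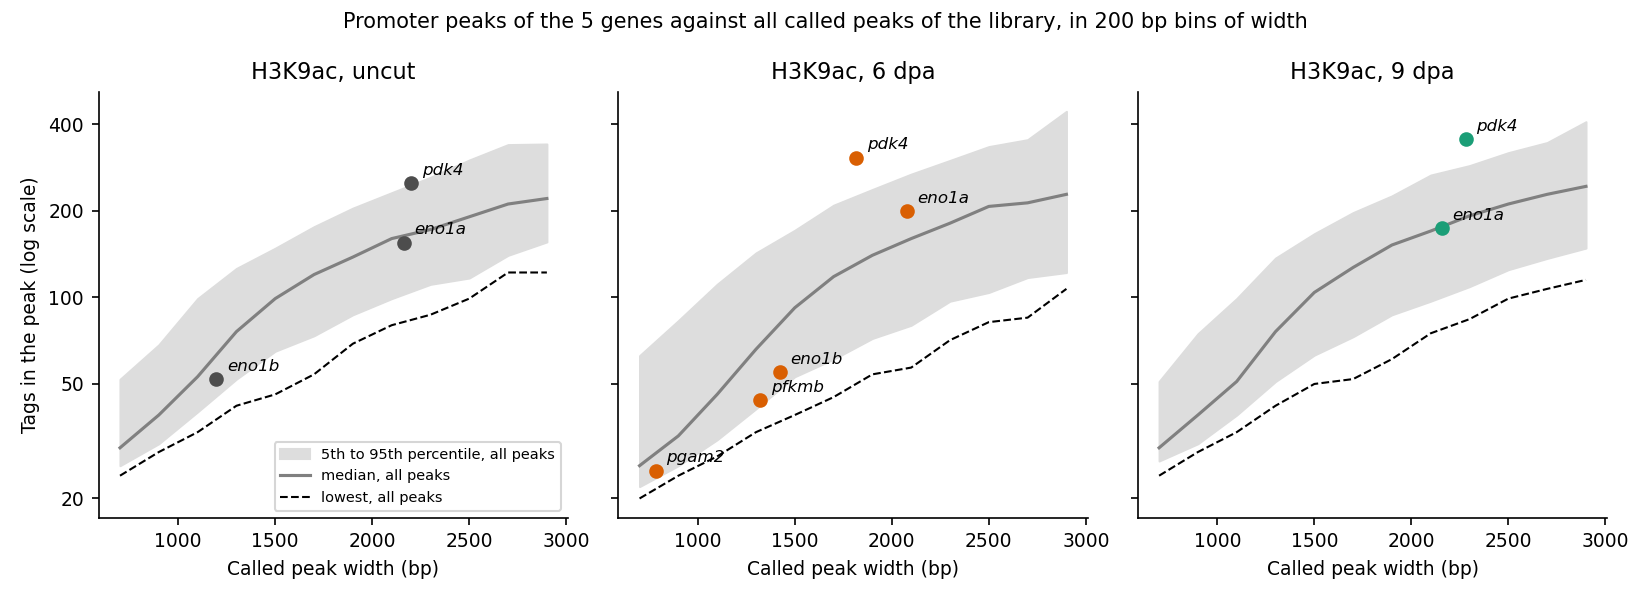
Tags (log scale) against called width in bp for the H3K9ac promoter peaks of the 5 genes (points), set on the median, the 5th to 95th percentile range and the lowest value of all called peaks in bins of 200 bp of width, for 1 library per panel. At 6 dpa pfkmb (44 tags) lies near the lower edge of the grey range, eno1b (55) and pgam2 (25) lie between that edge and the median, and pdk4 lies above the grey range at 6 and 9 dpa.

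H3K9me3 peaks overlapped the promoter windows of 2 of the 5 genes at 6 dpa and lay over the H3K9ac peaks. At eno1a the H3K9me3 peak ran from 22729748 to 22730861 on chromosome 23 and held 34 tags (23.5 to 47.5) over 1114 bp, with a score of 72.72. No called peak of like width in that library, 814 in all, held fewer tags. At pdk4 it ran from 41627864 to 41628788 on chromosome 19 and held 33 tags (22.7 to 46.3) over 925 bp, with a score of 64.25. The pdk4 one lay at -2799 to -1875 bp from the TSS, with its summit at -2276 bp, outside the 2 kb window. Only 126 bp of it were inside the window, and the authors' annotation gave it no gene name. They were 2.83 and 2.64 times the local background, and their H3K9ac counterparts at the same time 3.29 and 4.03 times. No H3K9me3 peak overlapped any of the 5 transcripts or promoter windows in the uncut or 9 dpa libraries.

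A peak of H3K9me3 at 6 dpa with none in the other libraries was seen at 2.96% of all genes, and 4.6% had one at 6 dpa, against 1.97% in uncut hearts and 1.83% at 9 dpa. Of the 372 promoter peaks of H3K9me3 at 6 dpa, 81.7% overlapped an H3K9ac peak of the same time, against 51.5% in uncut hearts and 57.3% at 9 dpa. The 298 genes with H3K9me3 at 6 dpa alone included 282 with an H3K9ac peak, and their median H3K9ac level was 182 tags, against 127 for all genes. Both pdk4 and eno1a were above that median of 127. Of these 6 dpa peaks 82.3% had a score below 100, as both of these did. In the 9 dpa library, peaks with the width of the eno1a one began at 30 tags and with that of the pdk4 one at 22, and in the shallower uncut library at 16 and 14. These counts are not scaled between libraries, whose H3K9me3 backgrounds were 4.1, 10.83 and 9.24 reads per kb in uncut, 6 dpa and 9 dpa hearts. They thus do not show whether like peaks would have been called at the other times. Whether the H3K9ac level, the depth or the enrichment of the 6 dpa library had a part in these peaks was not tested.

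The gene bodies held no further peak. The peaks that overlapped the transcripts of pfkmb, pgam2, eno1a and eno1b were the promoter peaks given above, and no peak of either mark overlapped the 22853 bp of the pdk4 transcript. H3K9ac peaks without a gene name stood outside the transcripts within 15 kb of their ends. One lay 8379 to 9821 bp downstream of the pgam2 TSS, past the end of that gene, with 47 tags in uncut hearts and 55 at 6 dpa, and was not in the 9 dpa list. Another, downstream of eno1a, was called at 6 dpa (40 tags) and 9 dpa (44 tags) and not in uncut hearts, with its summit 24069 and 24014 bp from the TSS. A further one, with its summit 34057 to 34322 bp from the eno1a TSS, held 89, 129 and 124 tags in uncut, 6 dpa and 9 dpa hearts. In the opposite direction, a peak 5417 bp or more upstream of the eno1a TSS held 63 tags in uncut hearts, with a score of 72.28, and was in neither list after amputation. Past the end of pdk4, a peak with its summit 28342 to 28602 bp from the TSS held 78, 53 and 74 tags in the 3 libraries.

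Most glycolysis genes named in the lists carried H3K9ac at their promoters in every library, as did 79.5% of all genes. How many differed by 1.5-fold depended on the scaling. Of 40 genes in the list of glycolytic enzymes and their regulators, the peak lists named 26, including 4 of the 5 genes here. Promoter peaks stood at 23 before amputation, 26 at 6 dpa and 23 at 9 dpa. The 3 with a peak at 6 dpa and none before were pfkmb, pgam2 and pfkfb2a. Since pfkmb and pgam2 count among the 26 only through those peaks, this share is not set against that of all genes. The 1 present in uncut hearts and absent at 9 dpa was eno1b, a pattern called at 2.06% of all genes. Of 23 genes with a peak in both libraries, 1 was at least 1.5-fold higher at 6 dpa and 1 lower, where 3.42% and 7.33% of all genes were. Scaled to the background of each library, which adds 0.49 to the log2 change of every gene, 10 of the 23 were higher and 0 lower. In tags per kb 0 and 0 passed. The shares of all genes past 1.5-fold on these scales are not given here, so nothing is read from these counts. The list's median log2 change was 0.07 at 6 dpa and 0.05 at 9 dpa, beside a median of 0 by construction over the genes used for scaling.

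The higher one at 6 dpa was tpi1b, a gene for triosephosphate isomerase, with 146 tags before amputation, 242 at 6 dpa and 187 at 9 dpa. Its change was 0.61 at 6 dpa (0.31 to 0.92) but -0.11 per kb, since the called peak widened from 1823 to 3106 bp. The lower one was ldhba, a gene for the heart type subunit of lactate dehydrogenase, with 129, 92 and 117 tags and a change of -0.60 (-1.004 to -0.20; -0.36 per kb). At 9 dpa the gene pgam1b was higher by 0.65 (0.12 to 1.20, and 0.82 per kb). It was the 1 of 22 genes compared that was 1.5-fold higher, and none was 1.5-fold lower. Of all genes 3.14% were higher and 2.8% lower. At pfkfb2a, which encodes an enzyme that sets the level of the activator of phosphofructokinase, a peak over the TSS held 76 tags at 6 dpa and 78 at 9 dpa and was not in the uncut list. Another peak lay upstream at every time, with 127, 74 and 98 tags, and its near edge crossed the border of the 2 kb window.

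The named genes that handle pyruvate in mitochondria also had H3K9ac promoter peaks. Of 17 listed, 11 were named and all 11 had a promoter peak in every library, as had 79.5% of all genes. A gene is named only if a peak list holds it. The median log2 change of the 11 was 0.15 at 6 dpa and 0.08 at 9 dpa. At 6 dpa 0 of the 11 were 1.5-fold higher and 1 lower, where 3.42% and 7.33% of all genes were. Scaled to the background, which adds 0.49 to the log2 change of every gene, 6 were higher and 1 lower. The 1 lower on either scale was mpc2, whose value is described below. The share of all genes past 1.5-fold on that scale is not given here. The other kinase gene measured, pdk2b, had 179, 215 and 220 tags and changes of 0.15 (-0.14 to 0.44) and 0.08 (-0.21 to 0.37). Both phosphatase genes that act against these kinases had values below 0 at 6 dpa, pdp1 with -0.29 (-0.64 to 0.06) and pdp2 with -0.39 (-0.85 to 0.06), and each interval includes 0. In tags per kb they had -0.009 and -0.17, and the background scaling puts both above 0, so their sign depended on the measure. Of the 5 genes of the complex itself (pdha1a, pdhb, dlat, dldh and pdhx), pdhx had a change of 0.43 at 6 dpa, the only one of the 5 whose interval (0.10 to 0.76) excludes 0. An H3K9me3 peak of 21 tags stood at dlat at 6 dpa, with a score of 50.23.

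The carriers that bring pyruvate into mitochondria passed 1.5-fold in 1 library each. For mpc1 the change at 9 dpa was 0.71 (0.35 to 1.07) but -0.18 per kb, as the called width went from 1065 to 2069 bp. For mpc2 it was -1.51 at 6 dpa (-1.83 to -1.20), from 303 to 115 tags. That value came from the edge of the window: an upstream peak of 194 tags in uncut hearts ended 1969 bp from the TSS, and at 6 dpa it held 255 tags and ended at 2025 bp. Its TSS peak alone held 109, 115 and 125 tags, and with a window of 1 kb the change was -0.03 at 6 dpa.

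**Figure D4:**
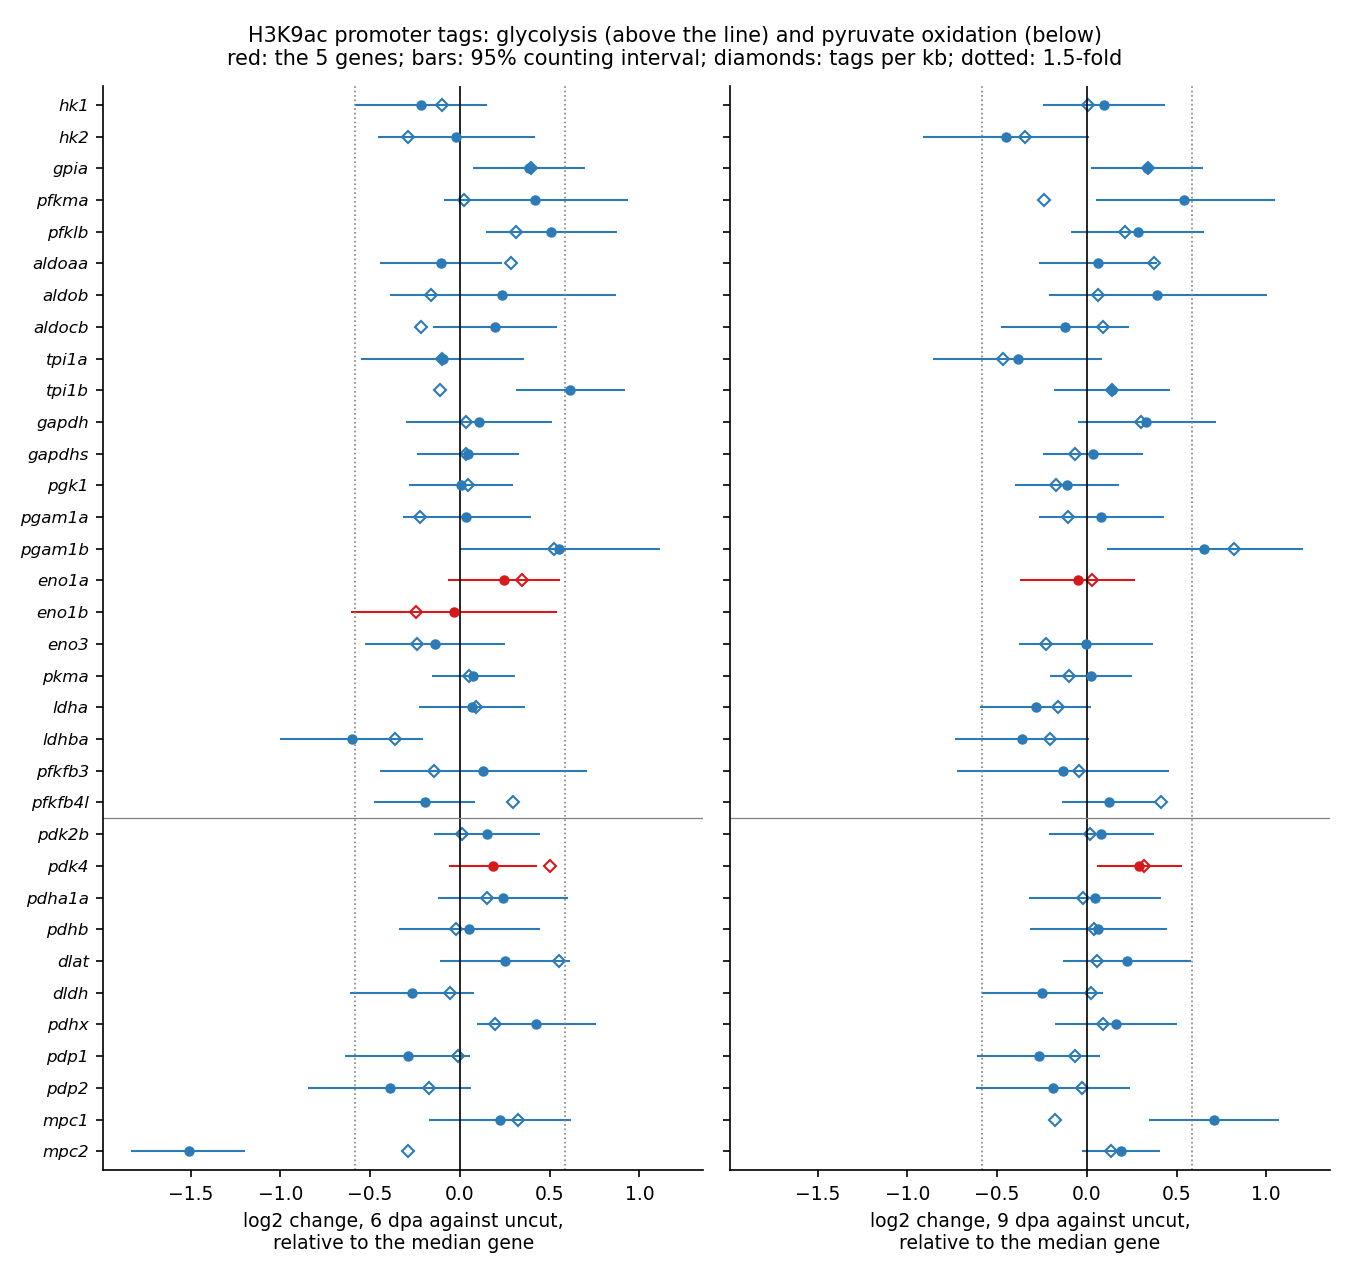
Log2 change in H3K9ac promoter tags at 6 dpa (left) and 9 dpa (right) against uncut hearts, relative to the median gene, for glycolysis genes (above the line) and pyruvate oxidation genes (below), with the genes described here in red. Points are changes in tags with 95% counting intervals, diamonds are changes in tags per kb, and dotted lines mark 1.5-fold; most points lie between the dotted lines, and mpc2 at 6 dpa lies at -1.51 in tags.

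By the size of H3K9ac promoter tags over the 3 libraries, tsc22d2 (155, 195 and 178 tags) and pdcd2l (160, 198 and 174) were among the genes most like eno1a. The measure was the Euclidean distance in log2 tags relative to each library's median, and their distances were 0.044 and 0.046 among 8008 genes. Those most like pdk4 were naa15a and LOC100000992, which had equal tags (256, 313 and 348), and rpgrip1l (250, 314 and 368). Among 140 genes with a peak in uncut hearts and at 6 dpa alone, those nearest to eno1b with a symbol were cyb561d2 (52 and 59 tags) and racgap1 (50 and 51). Of 280 other genes with a peak at 6 dpa alone, 6 had the same 44 tags as pfkmb, among them myof, fbxo5 and osr1, and 2 had the 25 tags of pgam2, fign and gmfg, followed by limch1a with 26. With 3 libraries at most, such likeness is a description of these values.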

How the data were processed

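Chromatin from uncut, 6 dpa and 9 dpa hearts was analysed with 1 library per mark and time, from 6 peak lists. The submitters' processing notes name Bowtie2 2.2.5, MACS 1.4.2, DiffBind 1.16.3 and danRer10, with no role for each. Per the file headers, the authors' peak caller gave each peak a tag count, a score (10 times the negative log10 of p), a fold enrichment and a width, and a gene annotation was added. The deposited tag counts are not normalized, and the fold enrichment is a ratio used only to describe peaks within its list. Reads outside peaks were not analysed here.

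Peaks with at least 1 bp in the window of 2 kb on either side of the TSS were assigned to a gene and their tags summed. Log2 ratios of tags were centred on the median gene with a peak at all times. Intervals (95%) are exact Poisson for a count and exact conditional binomial (Clopper-Pearson) for a ratio, and cover counting error only. The local background was solved from the Poisson p and tags of each peak, and the library background is its most common value in a list. With 1 library a group there is no test. A background scaling, tags per kb, a score minimum of 100, a fold of 2, and other windows and overlaps were tried. Python 3.11.15 with numpy 2.4.6, pandas 2.3.3 and scipy 1.17.1 was used, and the steps were tested on simulated data.

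The genes and lists were chosen with earlier results of these data known. Besides the 5 genes, the text names list genes past 1.5-fold whose interval excludes 0, list genes that gained or lost an H3K9ac promoter peak or had an H3K9me3 one, and the 3 genes nearest in pattern to each, of which 1 for eno1a is not reported here. Other genes of the families and of the pyruvate dehydrogenase complex, and its phosphatases, were named after their values were seen, and the comparison with peaks of like width was likewise added after seeing the data.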

Additional observations from a re-analysis of the deposited data

How the results depend on the processing

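No paired analysis was possible because each mark and time had 1 library, and none could be left out. Among list genes past 1.5-fold, tags per kb turned the sign of tpi1b (0.61 to -0.11) at 6 dpa and of mpc1 (0.71 to -0.18), egln3 (0.69 to -0.01) and tigara (-0.67 to 0.11) at 9 dpa. Scaling to the library background gave eno1a 0.74 at 6 dpa and -0.61 from 6 to 9 dpa, and pdk4 0.68 and -0.20. Tags per kb gave pdk4 0.50 and -0.19 for the same comparisons. With scores of at least 100, 3 of the 5 genes had an H3K9ac peak at 6 dpa in place of 5, and 0 an H3K9me3 peak in place of 2; a window of 1 kb or an overlap of 200 bp left 1 with H3K9me3. Over the 6 pathway lists together, 3 of 91 genes were 1.5-fold higher and 6 lower at 6 dpa (3.42% and 7.33% of all genes), and 4 and 2 of 90 at 9 dpa (3.14% and 2.8%). The 6 include mpc2, whose value came from the window edge. Background scaling gave 37 and 1 at 6 dpa and 9 and 0 at 9 dpa. It adds 0.49 at 6 dpa and 0.18 at 9 dpa to the log2 change of every gene. The shares of all genes past 1.5-fold on that scale are not given here. A fold of 2 gave 0 and 1, then 0 and 0. The 1 lower gene at 6 dpa was mpc2, both at a fold of 2 and under background scaling. Tags per kb gave 2 higher and 0 lower at 6 dpa, and 1 higher and 0 lower at 9 dpa. The shares of all genes at a fold of 2 or in tags per kb are not given here either. The split of higher and lower calls thus depended on the scaling. Wider and narrower windows for the lists were chosen after seeing the data. The eno1b change had no value with scores of at least 100, nor had the pdk4 changes that use 6 dpa with a window of 1 kb. The H3K9ac library background was 11.25 reads per kb at 6 dpa, against 14.63 in uncut hearts and 15.01 at 9 dpa. At the width of the pfkmb peak the lowest called counts were 34 tags at 6 dpa and 42 at either other time. Whether the background had a part in the peaks called at 6 dpa alone was not tested.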

Other observations

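Genes of fatty acid oxidation, the main fuel route of the adult heart, had H3K9ac promoter peaks in most cases. They stood at 18, 19 and 19 of the 19 named in uncut, 6 dpa and 9 dpa hearts. Of all genes, 82.8%, 86.9% and 85.4% had one in the same order. At 6 dpa 3 of 18 compared were at least 1.5-fold lower and 1 higher, beside 7.33% and 3.42% of all genes. Scaled to the background of each library, which adds 0.49 to the log2 change of every gene, 0 were lower and 7 higher. The share of all genes past 1.5-fold on that scale is not given here. In tags per kb 0 and 0 passed, so the direction of the split depended on the scaling. The lower ones were cpt1b, which encodes the muscle type carnitine palmitoyltransferase (180, 100 and 142 tags, log2 change -0.96, interval -1.33 to -0.60), hadhab (103, 70 and 125 tags, -0.67) and acaa2 (256, 177 and 282 tags, -0.65). The higher one was slc25a20, the carnitine and acylcarnitine carrier (100, 167 and 146 tags, 0.63). The list's median was -0.02, and in tags per kb the 3 lower genes had -0.45, -0.56 and -0.43. The summed cardiomyocyte marker tags were also lowest at 6 dpa (285 over 4 genes, against 641 and 576 over 6), and their part in these values was not tested. The gene fabp3, for a fatty acid binding protein, had no promoter peak in the uncut list and 42 and 74 tags after amputation. Its 6 dpa peak was 1151 bp wide, and uncut peaks in the 200 bp bin of width from 1000 bp began at 34 tags, with a 5th percentile of 40. The gene acadl, for an acyl-CoA dehydrogenase, was higher at 9 dpa (45, 69 and 79 tags, 0.59, interval 0.05 to 1.15). It was the 1 of 18 compared that passed 1.5-fold in this direction, as 3.14% of all genes did. In tags per kb its change was 0.54, below 1.5-fold, and the call was lost with scores of at least 100.

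Of the oxygen sensors among the metabolic regulators, egln1b had 161, 276 and 270 tags (0.66 at 6 dpa, interval 0.38 to 0.95, and 0.63 per kb), and egln3 had 152, 196 and 285 (0.69 at 9 dpa, interval 0.40 to 0.98, but -0.01 per kb). In the same list, tigara was lower at 9 dpa (101, 79 and 74 tags, -0.67, but 0.11 per kb). The median of the list was 0.25 at 6 dpa over 11 genes and 0.19 at 9 dpa. The 18 citric acid cycle genes compared had a median of -0.15 at 6 dpa with none past 1.5-fold, and -0.13 at 9 dpa with idh3a lower (155, 135 and 110 tags, -0.71, and -0.52 per kb). At 6 dpa 1 of the 18 was 1.5-fold higher in tags per kb and 3 were when scaled to the background, with 0 lower on either. The 1 in tags per kb was dlst, with 107 tags in uncut hearts and 89 at 6 dpa. Its called width went from 1405 to 634 bp. The background scaling adds 0.49 to the log2 change of every gene. Shares of all genes on these 2 scales are not given here, so nothing is read from these counts. The 10 genes of glucose and lactate transport and glycogen had medians of -0.02 and 0.25. Among them si:ch211-234h8.7, taken here as the lactate carrier gene slc16a3a, was lower at 6 dpa (56, 33 and 50 tags, -0.88, interval -1.54 to -0.23, and -0.38 per kb). Its peak lay wholly upstream of the TSS (-2124 to -1184 bp at 6 dpa), and the call was lost with scores of at least 100 and with a window of 1 kb. The regulator gene pparab had no promoter peak in the uncut list and 37 and 62 tags after amputation. Its peak lay downstream of the TSS, at 1469 to 2594 bp at 6 dpa (score 51.63) and 1068 to 2424 bp at 9 dpa. Uncut peaks in the 200 bp bin of width from 1000 bp began at 34 tags, with a 5th percentile of 40. In unscaled tags its 6 dpa peak was thus near the lowest called in uncut hearts.

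H3K9me3 promoter peaks were few in these lists. They were called at slc2a12 (20 tags, score 50.72) and hadhab (22 tags) at 6 dpa alone, at hadhaa before amputation (12 tags) and at 6 dpa (40 tags), and at acads at 6 dpa (51 tags) and 9 dpa (46 tags).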
